A study of Mus musculus with 8 samples.

Results

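The FLRT proteins (Flrt1, Flrt2 and Flrt3), the latrophilin receptors (Adgrl1, Adgrl2, Adgrl3 and the related Adgrl4) and the secreted protein olfactomedin 1 (Olfm1) were examined in LSECs, the endothelial cells that line the hepatic sinusoids. All 8 genes were found by their symbol among 25428 rows, 1 row for each gene. The family was chosen by the log2 values of Flrt1 and Olfm1, which were past the threshold in the comparison of genotypes described here. Their values are therefore given as a description, without a test, and the other 6 genes were added as relatives with earlier results of these data in view.

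The samples were LSECs of female C57BL/6J mice aged 2 months, isolated with magnetic beads against CD146, in 4 samples of the genotype Ctrl (called wild type in their description and Ctnnb1WT by the study) and 4 of Ctnnb1OE-EC. Ctnnb1OE-EC mice carry the transgene Clec4g-iCre and 1 Ctnnb1 allele with a floxed exon 3, and loss of this exon leaves β-catenin, the effector of canonical Wnt signaling, resistant to degradation. The sources used here do not give the transgene or Ctnnb1 alleles of the control mice. Clec4g-iCre is active in LSECs but also in endothelial cells of the heart, and Ctnnb1OE-EC mice develop cardiac dysfunction. Each sample was a pool of 2 mice. RNA was hybridized to Affymetrix mouse gene arrays, and the values are on the log2 scale after quantile normalization, so that a difference of 1 is 2-fold.

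FLRT proteins span the membrane once and carry leucine-rich repeats and a fibronectin type III domain outside the cell. They bind latrophilins on other cells and the netrin receptors of the Unc5 family, and these contacts guide migrating neurons, axons and vessels. Latrophilins 1 to 3 (Adgrl1 to Adgrl3) are adhesion G protein-coupled receptors whose olfactomedin-like domain is the site at which FLRT proteins bind, and teneurins are their other main ligands. Adgrl4 is enriched in endothelial cells and lacks that domain. Olfactomedin 1 is a secreted glycoprotein that was described mainly in the nervous system.

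The array median was 4.20 in each sample, and genes under it are called low here, since their signal may be close to background. All 9 LSEC markers examined, among them Stab1, Stab2, Lyve1 and Clec4g, lay over the array median in every sample. Their summed linear signal was 41707 to 45561 in Ctrl and 34829 to 39239 in Ctnnb1OE-EC LSECs, with 8 of 9 means lower. That of 6 markers of continuous endothelium was 7319 to 9173 and 9907 to 11599, with 4 means higher and 2 lower (median log2 fold change 0.18). The sum of 6 pan-endothelial markers was 21000 to 22210 and 20631 to 22287. Axin2, a feedback target of Wnt signaling, had log2 values of 4.99 to 5.70 in Ctrl and of 7.75, 7.12, 7.40 and 7.24 in Ctnnb1OE-EC replicates 1 to 4. The Ctnnb1 row, which does not resolve exon 3, had means of 10.28 and 10.63 (adjusted p = 0.361 from limma). On the first principal component (30.6% of the variance) Ctnnb1OE-EC replicates 3 and 4 lay apart, and in both the markers of adrenal cortex, smooth muscle, and neutrophils and monocytes were raised (list means 1.19 to 2.95 over the Ctrl mean, on the log2 scale), smooth muscle markers being raised in Ctrl replicate 2 as well, by 1.91. In the same replicates 3 and 4 the list means of pancreatic acinar markers were at -2.53 and -1.97 and those of hepatocyte markers at -1.80 and -1.17 against the Ctrl mean, and within Ctrl the acinar list ranged from -2.52 to 2.37 and the hepatocyte list from -0.95 to 0.90. Across all rows, 234 passed limma's test at an adjusted p under 0.05, or 0.920%, with 136 (0.535%) higher and 98 (0.385%) lower in Ctnnb1OE-EC LSECs.

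Among the FLRT proteins, Flrt1 was lower and Flrt2 higher in Ctnnb1OE-EC than in Ctrl LSECs, and Flrt3 was under the array median in every sample. Flrt1 had log2 values of 8.02, 8.29, 8.52 and 7.64 in Ctrl replicates 1 to 4 and of 5.52, 6.65, 5.52 and 5.51 in Ctnnb1OE-EC replicates 1 to 4. The groups did not overlap, and 3 of the 4 Ctnnb1OE-EC samples lay at nearly the same level, with replicate 2 standing above them. Flrt1 averaged 8.12 ± 0.38 (SD, n = 4) in Ctrl and 5.80 ± 0.56 in Ctnnb1OE-EC samples, a log2 difference of -2.32 (SE 0.28), or 4.98-fold lower. Without Ctnnb1OE-EC replicate 2 the log2 fold change was -2.60. The same replicate had the lowest Axin2 value of the Ctnnb1OE-EC samples, and the part of this in the Flrt1 value was not tested.

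Flrt2 moved the other way. Its log2 values were 6.48, 7.29, 6.31 and 7.05 in Ctrl replicates 1 to 4 and 8.29, 8.24, 8.42 and 7.83 in Ctnnb1OE-EC replicates 1 to 4, so that every Ctnnb1OE-EC sample lay above every Ctrl sample. The narrowest gap, between Ctrl replicate 2 and Ctnnb1OE-EC replicate 4, was 0.54. Flrt2 rose, with means of 6.78 ± 0.46 (SD, n = 4) in Ctrl and 8.20 ± 0.26 in Ctnnb1OE-EC samples, a log2 difference of 1.41 (adjusted p = 0.0244 by limma, SE 0.23), or 2.66-fold with a 95% confidence interval of 1.87 to 3.78. The two-sided exact permutation test gave p = 0.0286, unadjusted, the smallest that 4 samples against 4 allow. Any row whose groups do not overlap reaches this p, as 7.59% of all rows did, so it adds nothing to the lack of overlap. The direction was the same with any sample left out, but limma's call was not: it was lost without Ctrl replicate 1 (adjusted p = 0.0832), 3 (0.0518) or 4 (0.0576), without Ctnnb1OE-EC replicate 1 (0.0701), 2 (0.0583) or 3 (0.0923), and by a plain analysis of variance for each row (0.144).

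**Figure D1:**
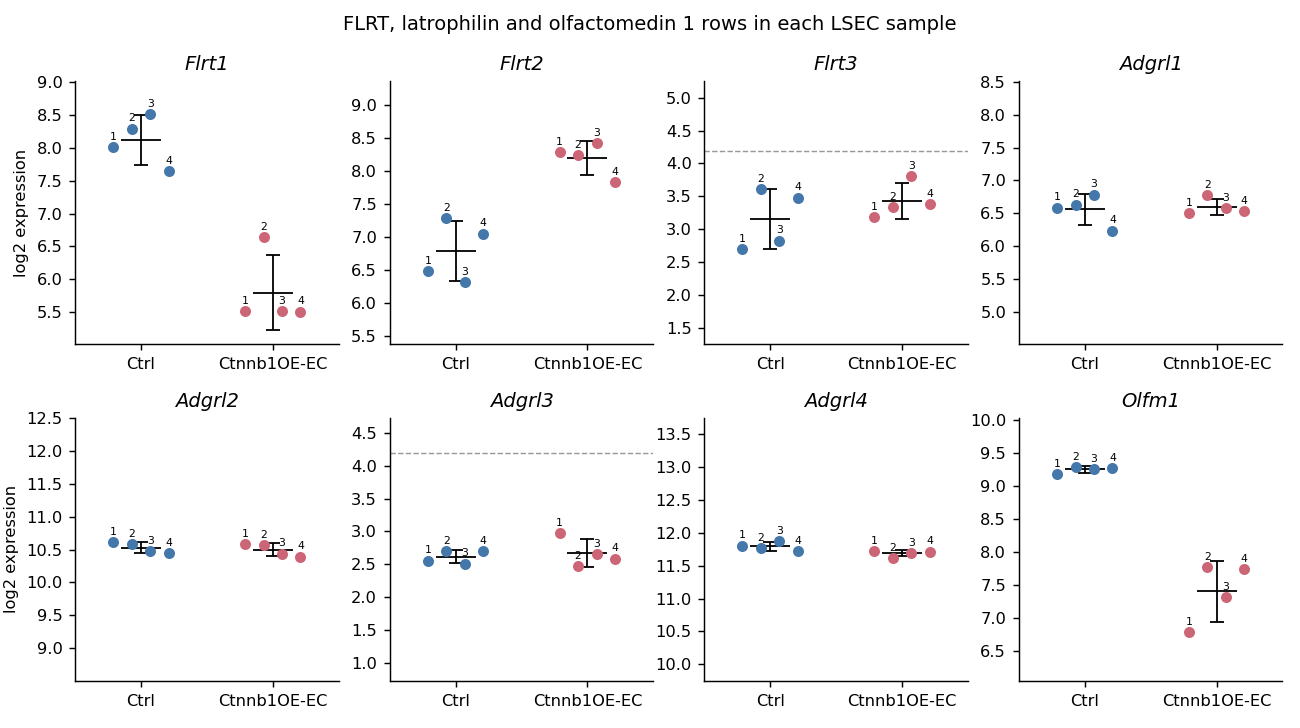
Log2 expression of the 8 genes in each of the 4 Ctrl (blue) and 4 Ctnnb1OE-EC (red) samples, with replicate numbers, mean and SD; every panel spans 4 log2 units, and the dashed line is the array median of 4.20 where it falls in the panel. Flrt1 and Olfm1 are lower and Flrt2 is higher in all 4 Ctnnb1OE-EC samples, while the other 5 genes overlap between groups.

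Flrt1 and Flrt2 ran in opposite directions between the genotypes, with little relation within them. Across all 8 samples the log2 values of both had a Pearson r of -0.87, and after the group means were subtracted r was -0.13. For Flrt1 and Olfm1 these values were 0.94 and 0.44. The points share arrays, and the first value of each pair includes the difference between the genotypes. Of the 15 pairs among the 6 genes over the array median, Flrt1 and Adgrl1 had the highest r after the group means were subtracted, 0.86, with 0.18 before. In both genes Ctnnb1OE-EC replicate 2 was the highest of its group and Ctrl replicate 4 the lowest. By this measure 132 of 12679 named rows over the array median had r over 0.9 with Flrt1 and 106 with Adgrl1.

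**Figure D2:**
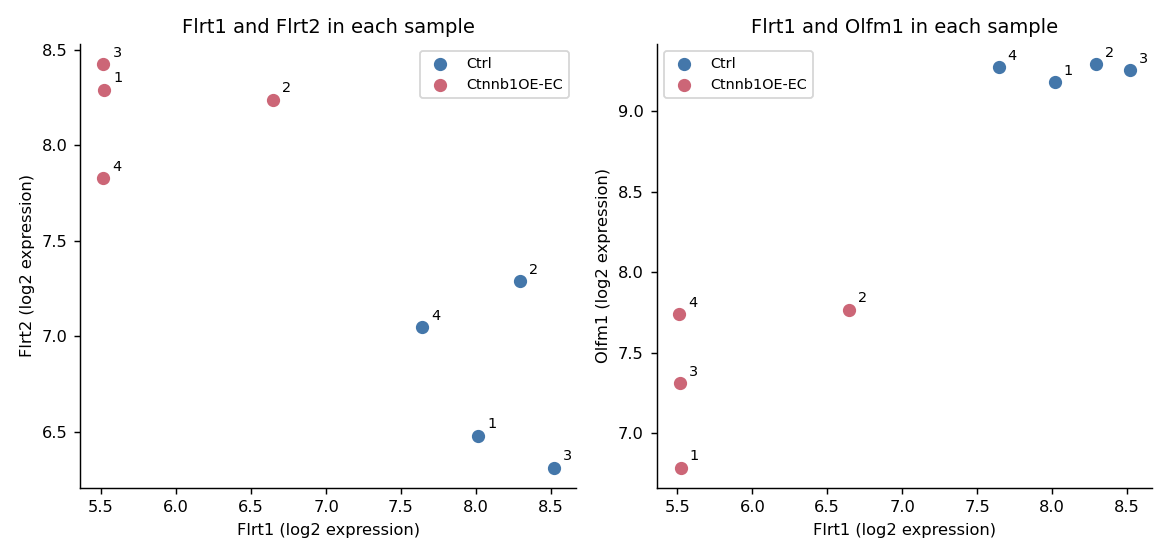
Log2 expression of Flrt2 (left) and Olfm1 (right) against that of Flrt1 in each sample, with replicate numbers; Ctrl is blue and Ctnnb1OE-EC red. The genotypes fall into opposite corners, and Ctnnb1OE-EC replicate 2 has the highest Flrt1 value of its group, 6.65.

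Flrt3 had a mean log2 value of 3.15 ± 0.46 (SD, n = 4) in Ctrl and 3.43 ± 0.27 (SD, n = 4) in Ctnnb1OE-EC LSECs. All its values, from 2.70 to 3.81, lay under the array median, where a fold change is uncertain (log2 fold change 0.28, SE 0.23, adjusted p = 0.715 from limma). The FLRT genes lie on separate chromosomes, Flrt1 on chromosome 19, Flrt2 on chromosome 12 and Flrt3 on chromosome 2.

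RefSeq windows before the start of transcription (GRCm38.p6) were searched for the core motif of the TCF/LEF factors, through which β-catenin acts on genes, spelled as CTTTGAA or CTTTGAT and as CTTTGTA or CTTTGTT, on both strands. Windows were found for 7 of the 8 genes, 10 windows in all, and Flrt1 had no entry. The 250 bases before the start of Flrt2 (chr12:95691976-95692225, plus strand) held 1 match on the minus strand, shown in capitals because Flrt2 is the member that rose:
Flrt2: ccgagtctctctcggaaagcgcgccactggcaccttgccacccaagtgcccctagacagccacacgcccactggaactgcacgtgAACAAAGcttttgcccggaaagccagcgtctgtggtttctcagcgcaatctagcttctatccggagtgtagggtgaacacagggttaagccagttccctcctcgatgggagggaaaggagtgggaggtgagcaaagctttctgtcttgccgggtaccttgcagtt
Of the 10 windows, 2 held a match, those of Flrt2 and Adgrl2, while 14.8% of all 32851 promoter windows did. A match describes letters and not binding.

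The latrophilins Adgrl1 to Adgrl3, the receptors of FLRT proteins, and the related Adgrl4 did not pass limma's test. Adgrl2 and Adgrl4 were well over the array median in every sample. Adgrl2, a latrophilin with the FLRT-binding domain, had log2 values of 10.62, 10.58, 10.47 and 10.45 in Ctrl and of 10.59, 10.57, 10.44 and 10.39 in Ctnnb1OE-EC replicates 1 to 4. The groups overlapped almost completely, and the fold of Ctnnb1OE-EC over Ctrl was 0.978 with a 95% confidence interval of 0.850 to 1.13 (adjusted p = 0.936 from limma). Adgrl4 had 11.80, 11.76, 11.88 and 11.72 in Ctrl and 11.72, 11.62, 11.69 and 11.71 in Ctnnb1OE-EC replicates 1 to 4. Its lowest Ctrl value and its highest Ctnnb1OE-EC value met at 11.72, and the fold was 0.930 (95% confidence interval 0.821 to 1.05, adjusted p = 0.695 from limma). Its residual SD between samples, 0.06 on the log2 scale, was under that of all but 1.00% of the rows.

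Adgrl1, known as a receptor of the spider toxin α-latrotoxin, had a mean log2 value of 6.56 ± 0.23 (SD, n = 4) in Ctrl and 6.60 ± 0.13 (SD, n = 4) in Ctnnb1OE-EC LSECs. Its values ranged from 6.24 to 6.78 in Ctrl and from 6.50 to 6.78 in Ctnnb1OE-EC samples (fold 1.03, 95% confidence interval 0.838 to 1.25, adjusted p = 0.951 from limma). Adgrl3 lay under the array median in every sample, from 2.48 to 2.98, with a log2 difference of 0.06 (SE 0.12, adjusted p = 0.914). The intervals of Adgrl1, Adgrl2 and Adgrl4 exclude a change of 2-fold or of the size seen for Flrt2 in either direction. In this comparison 3 of the 8 genes were called, 1 higher and 2 lower, against 0.920% of all rows, and the groups of the same 3 genes did not overlap, against 3.55% of all rows higher and 4.04% lower without overlap. Since Flrt1 and Olfm1 chose the family, nothing is read from that count.

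Olfm1 was high and nearly constant in Ctrl LSECs and lower and more variable in Ctnnb1OE-EC LSECs. Its log2 values were 9.18, 9.29, 9.26 and 9.28 in Ctrl replicates 1 to 4 and 6.78, 7.77, 7.31 and 7.74 in Ctnnb1OE-EC replicates 1 to 4. No Ctnnb1OE-EC sample came within 1.42 log2 units of a Ctrl sample. The mean was 9.25 ± 0.05 (SD, n = 4) in Ctrl and 7.40 ± 0.46 (SD, n = 4) in Ctnnb1OE-EC samples, a log2 difference of -1.85 (SE 0.20), or 3.61-fold lower. Replicate 1 was lowest for Olfm1 but not set apart for Flrt1, and replicate 2, the highest for Flrt1, was close to replicate 4 for Olfm1. The SD of Olfm1 was 9.56 times as large in Ctnnb1OE-EC as in Ctrl samples, where the median ratio over all rows was 1.15, and only 3.60% of rows had a lower SD in Ctrl.

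The Olfm1 row does not resolve transcripts, which begin at either of 2 starts annotated in RefSeq (GRCm38.p6). The windows before both are shown since Olfm1 has the widest gap between genotypes of the 8 genes, and neither held a TCF/LEF match. They lie at chr2:28192843-28193092 and chr2:28205439-28205688, on the plus strand, and all their letters are in lower case because nothing is marked:
Olfm1, first start: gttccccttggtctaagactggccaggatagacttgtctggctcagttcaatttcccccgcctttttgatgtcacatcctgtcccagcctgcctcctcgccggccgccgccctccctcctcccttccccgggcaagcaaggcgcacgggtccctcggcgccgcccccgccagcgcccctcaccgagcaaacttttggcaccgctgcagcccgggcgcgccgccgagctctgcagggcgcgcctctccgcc
Olfm1, second start: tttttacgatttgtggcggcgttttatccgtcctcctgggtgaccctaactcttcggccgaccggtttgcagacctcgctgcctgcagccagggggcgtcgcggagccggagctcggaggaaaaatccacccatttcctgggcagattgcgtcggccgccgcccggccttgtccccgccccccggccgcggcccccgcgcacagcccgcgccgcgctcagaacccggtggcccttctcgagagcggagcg
Both windows were rich in G and C (69.2% each, against a median of 52.4% over all windows) and held 23 and 32 CG pairs, against a median of 6.

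As these were bulk samples, fewer cells with a transcript and less of it per cell cannot be told apart. Beside the lower Flrt1 and Olfm1, the LSEC markers had a median log2 fold change of -0.15. Of the 9 LSEC markers 1 was called lower, Lyve1, with -1.78 (adjusted p = 0.0178 from limma). The 6 central vein markers all had a lower mean (median -0.89), and 1 was called, against 0.385% of all rows called lower. Among the 6 markers of continuous endothelium 1 was called higher, against 0.535% of all rows. Summed linear signals of the central vein markers overlapped between genotypes, from 3524 to 5514 in Ctrl and from 2351 to 3799 in Ctnnb1OE-EC samples. The neuronal markers Tubb3 and Snap25 and the glial marker S100b, of the tissue in which these proteins are best known, were under the array median in every sample of both genotypes. The part of these cell types in the differences was not tested. Without Ctnnb1OE-EC replicates 3 and 4, which held the adrenal and smooth muscle signal, the log2 fold changes were -2.03 for Flrt1, -1.98 for Olfm1 and 1.48 for Flrt2. Neither Flrt1 nor Flrt2 was then past the threshold (adjusted p = 0.136 from limma for Flrt2), while Olfm1 stayed past it. With fewer Ctnnb1OE-EC samples, the rows past it fell from 234 to 61 over the whole array. The part of the adrenal and smooth muscle signal in these changes was not tested. By the plain analysis of variance on all samples, neither Flrt1 nor Olfm1 was past the threshold. Both are listed as lower in the gene list that the study drew from these samples by its own analysis of variance. The plain version does not stand for that step, and the study's list is not independent evidence.

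The partners of these proteins were then counted from lists of the FLRT partners, latrophilin ligands and tail partners, and olfactomedin 1 partners, with 8, 11 and 10 genes. None of these 29 genes passed limma's test at an adjusted p under 0.05, where 0.920% of all rows did. The plain analysis of variance called 0 of them, but it called only 20 of all 25428 rows. An unadjusted p under 0.05 in limma was found for 6 of the 29, against 11.5% of all rows. Robo1, a Slit receptor that FLRT3 binds, had log2 values of 8.24 to 8.70 in Ctrl and of 8.78 to 9.62 in Ctnnb1OE-EC samples. Its groups did not overlap, as in 7.59% of all rows, and its log2 fold change was 0.83 (SE 0.19, adjusted p = 0.106). Of the Unc5 receptors, Unc5a had -0.44 (adjusted p = 0.386), and Unc5c had 0.23 (adjusted p = 0.379) under the array median. The lists had median log2 fold changes of 0.13, 0.07 and -0.06, where that of all rows was -0.01.

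Among the latrophilin ligands, Nrxn2, a neurexin, had a log2 difference of -0.46 (adjusted p = 0.269 by limma, SE 0.15). The teneurin Tenm3 had 0.59 (adjusted p = 0.424), with a Ctrl mean of 2.67 under the array median. Of this list, 4 of 11 genes had a group mean over the array median. Of the olfactomedin 1 partners 3 of 10 did, and Gria4 and Gria3, subunits of AMPA receptors, had -0.30 and 0.27 from levels under it (adjusted p = 0.288 and 0.560). Ngfr, a neurotrophin receptor, had -0.37 (adjusted p = 0.515).

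Structural relatives were counted in 3 further lists, of 9 genes with an olfactomedin domain, 25 other adhesion G protein-coupled receptors and 28 other membrane proteins with leucine-rich repeats. In all, 2 of these 62 genes passed, against 0.920% of all rows. The plain analysis of variance called 0 of the 62 and only 20 of all 25428 rows. An unadjusted p under 0.05 in limma was found for 8 of the 62, against 11.5% of all rows. Adgrg1, an adhesion receptor that binds collagen III, fell, with means of 9.62 ± 0.31 (SD, n = 4) in Ctrl and 8.08 ± 0.53 in Ctnnb1OE-EC samples, a log2 difference of -1.55 (adjusted p = 0.0304 by limma, SE 0.26). Its values were 9.50, 9.65, 10.04 and 9.31 in Ctrl and 7.56, 8.81, 7.85 and 8.09 in Ctnnb1OE-EC replicates 1 to 4, so that replicate 2 was again the highest of its group. The call of Adgrg1 was lost without Ctrl replicate 1 (adjusted p = 0.0837), 2 (0.0962), 3 (0.0760) or 4 (0.0663), and without Ctnnb1OE-EC replicate 1 (0.0649), 3 (0.113) or 4 (0.0765). Of the adhesion receptors 21 of 25 had a lower mean, as did 53.6% of all rows, and the median of the list was -0.13. Adgra3 had -0.62 (adjusted p = 0.0988) and Adgrd1 -0.48 (adjusted p = 0.365). Only 12 of the 25 had a group mean over the array median, and under it the direction of a change is uncertain.

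Lrig1, a leucine-rich repeat protein that restrains signaling of epidermal growth factor receptors, rose, with means of 5.27 ± 0.25 (SD, n = 4) in Ctrl and 6.72 ± 0.33 in Ctnnb1OE-EC samples, a log2 difference of 1.45 (adjusted p = 0.00899 by limma, SE 0.18). Lrig1 is in a gene list that the study drew from these samples, so its direction is not independent evidence. Its values were 4.96 to 5.54 in Ctrl and 6.25 to 6.98 in Ctnnb1OE-EC samples, without overlap. The call of Lrig1 was lost with the replicate number as a block (adjusted p = 0.0686), by the plain analysis of variance (0.0867) and without Ctnnb1OE-EC replicates 3 and 4 together (0.0978). Its relative Lrig3 had 0.34 (SE 0.09, adjusted p = 0.160), and Lrrc4 had 0.47 (adjusted p = 0.238) under the array median. Of the genes with an olfactomedin domain none was called, although 1 had an unadjusted p under 0.05. The plain analysis of variance called 0 of them, against 20 of all 25428 rows. Olfml2b and Olfml2a, secreted proteins of the matrix, had log2 fold changes of 1.03 (SE 0.32) and 0.77 (SE 0.37), with adjusted p of 0.240 and 0.484, and Olfm2, under the array median, had 0.17 (adjusted p = 0.518).

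**Figure D3:**
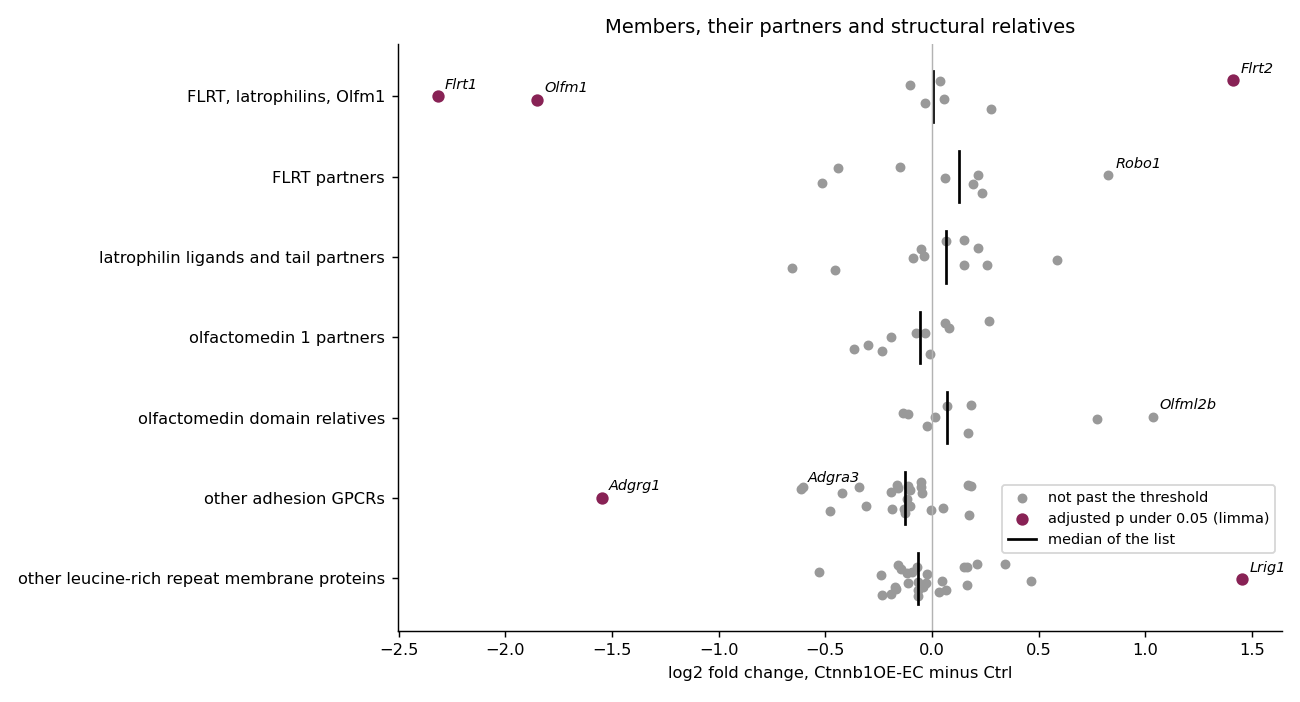
Log2 fold change (Ctnnb1OE-EC minus Ctrl) of the 8 genes and of the genes in each of 6 partner and relative lists, 1 point per gene, with the median of each list as a black bar; vertical position within a list has no meaning. Adgrg1 and Lrig1 are the genes past the threshold in the partner and relative lists.

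Flrt1 lies inside Macrod1, a gene of mono-ADP-ribose removal, and Flrt3 inside Macrod2. Macrod2, under the array median, had a log2 difference of -0.03 (adjusted p = 0.956), and Gm10644, which overlaps Adgrl1 and is also low, of -0.13 (adjusted p = 0.869). Macrod1 had a mean log2 value of 5.51 ± 0.11 (SD, n = 4) in Ctrl and 5.83 ± 0.19 in Ctnnb1OE-EC samples, a log2 difference of 0.32 (adjusted p = 0.315 by limma, SE 0.11), opposite in sign to that of Flrt1. The non-coding Gm38621 shares 13000 bases of locus with Flrt1 and was not measured. Another non-coding transcript, 5730409K12Rik, shares 4579 bases of locus with Flrt1. It fell, with means of 5.93 ± 0.46 (SD, n = 4) in Ctrl and 4.60 ± 0.23 in Ctnnb1OE-EC samples, a log2 difference of -1.33 (adjusted p = 0.0298 by limma, SE 0.22), with values of 5.45, 6.06, 6.51 and 5.69 in Ctrl and 4.45, 4.90, 4.39 and 4.66 in Ctnnb1OE-EC replicates 1 to 4. Every Ctnnb1OE-EC sample lay below every Ctrl sample. The tables used here do not say whether the probes of both rows lie in the shared bases, so RNA of the 2 genes cannot be told apart. The call of 5730409K12Rik was lost without Ctrl replicate 2 (adjusted p = 0.0994) or 4 (0.0707) and without Ctnnb1OE-EC replicate 1 (0.0795), 3 (0.110) or 4 (0.0720).

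The 5 measured genes on each side of Flrt1 had log2 fold changes from -0.15 to 0.31, with 8 of 10 means higher, and none passed limma's test (lowest adjusted p = 0.414, with 1 at an unadjusted p under 0.05). Its nearest neighbours Stip1, a co-chaperone, and Otub1, a deubiquitinase, had -0.07 and 0.17. Around Olfm1 the 10 genes ranged from -0.23 to 0.48, none passed (lowest adjusted p = 0.257, with 2 at an unadjusted p under 0.05), and the nearest ones, the non-coding F730016J06Rik and Gm13373, had -0.23 and 0.15. The order of the genes is that of GRCm38.p6, and the files name no build of their own.

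**Figure D4:**
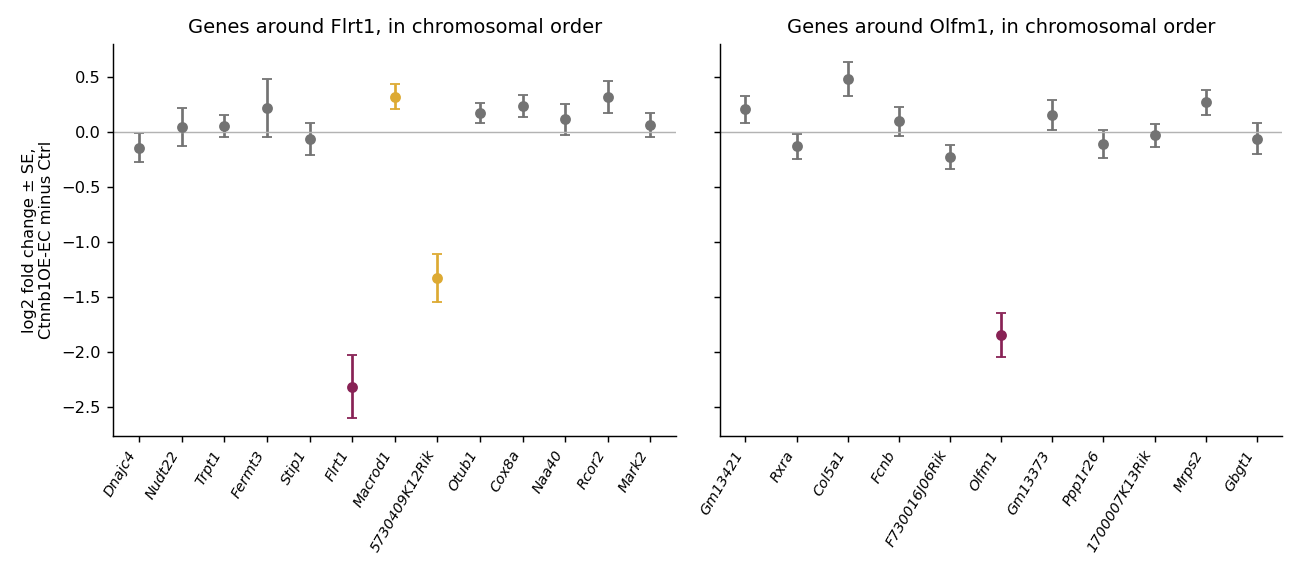
Log2 fold change with SE (Ctnnb1OE-EC minus Ctrl) of Flrt1 (left) and Olfm1 (right), in purple, and of the 5 measured genes on each side in chromosomal order, in gray. Measured genes that overlap Flrt1 are in yellow to its right. The neighbours lie between -0.23 and 0.48, and of the overlapping rows 5730409K12Rik is lower and Macrod1 is not.

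Of 12679 other named rows with a mean over the array median, the log2 values of Rflna, a regulator of actin crosslinking by filamin, followed those of Flrt1 most closely over the 8 samples (Pearson r = 0.98), followed by Adgrg1 (0.98) and Atp6v0a2, a subunit of the vacuolar proton pump (0.98). Rflna had a log2 difference of -0.75 (adjusted p = 0.0460 from limma) and Atp6v0a2 of -0.39 (adjusted p = 0.131). For Olfm1 the closest rows were Extl2, an enzyme of heparan sulfate synthesis (0.99), Nlrc3, a regulator of innate immunity (0.99), and Ranbp6, a member of the importin family (0.97), with log2 fold changes of -0.46, -0.70 and -0.37. With 8 samples many rows reach such values: 197 rows had r over 0.9 with Flrt1 and 118 with Olfm1. After the group means were subtracted, the closest rows were Snrpb, Dysf and Urm1 for Flrt1 (0.98 each) and Retn, Rab10os and Spred3 for Olfm1 (0.99, 0.96 and 0.96), none of which was among the closest rows named above.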

How the data were processed

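LSEC RNA of 4 Ctrl and 4 Ctnnb1OE-EC samples was measured on Affymetrix MoGene-2_0-st arrays. The authors took Entrez-based gene definitions from a Custom CDF (version 22), corrected the background by robust multiarray analysis (RMA) and applied quantile normalization, which gave the log2 values deposited. The software version of RMA and the genome build are not given in the sources used here. Replicates are pools of mice, and the number of arrays limits the precision.

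Rows were named through Entrez identifiers by the RefSeq table of GRCm38.p6 (25237 rows) or the platform annotation (32 more); 159 stayed unnamed. Genotypes were compared on all rows with limma 3.58.1 in R 4.3.3 (lmFit and eBayes, two-sided, 3.21 prior degrees of freedom), and p-values were adjusted by Benjamini-Hochberg over all rows, at a threshold of 0.05, and the fit was tested on simulated data. A plain one-way analysis of variance for each row, adjusted in the same way, was an alternative. The study ran its one-way analysis of variance in SAS JMP Genomics with settings not given in the sources used here. The plain version does not give the study's calls and does not stand for that step. No filter was applied.

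Members and lists were chosen with earlier results of these data known. Named genes were the members, from each list the called genes and up to 3 of smallest p, genes overlapping or next to Flrt1 and Olfm1, and the 3 rows closest to each by Pearson r; some results are not reported here. The labels do not say whether replicate numbers pair samples. The correlation of deviations from group means was 0.25, -0.18, 0.03 and -0.15 in the same-numbered pairs, so samples were not paired.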

Additional observations from a re-analysis of the deposited data

Results flagged for a closer look

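In 16 sets of values, those of 8 genes in each of 2 genotypes, 1 sample stood apart from the other 3 of its group by Dixon's ratio. This was Flrt1 in Ctnnb1OE-EC replicate 2, with a log2 value of 6.65 against 5.51 to 5.52 in the other Ctnnb1OE-EC samples, and the ratio of this gap to the range of the 4 samples was 0.990. Since the Flrt1 values chose the family, the ratio is a description of the spread within this genotype and no test. Chance alone sets 1 sample apart in about 1 in 20 such groups.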

How the results depend on the processing

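The direction of Flrt1, Olfm1, Flrt2, Flrt3 and Adgrl4 was the same under every alternative that gave a value. With 1 sample left out, log2 fold changes ranged from -2.60 to -2.18 for Flrt1, from -1.97 to -1.65 for Olfm1 and from 1.25 to 1.58 for Flrt2, and they were 0.13 to 0.43 for Flrt3, -0.071 to 0.11 for Adgrl1, -0.063 to 0.0030 for Adgrl2, -0.046 to 0.12 for Adgrl3 and -0.13 to -0.076 for Adgrl4. Flrt2, at 1.41, did not pass by the plain analysis of variance, at an adjusted p threshold of 0.01 or with the replicate number as a block (adjusted p = 0.118), and at 1.48 not without Ctnnb1OE-EC replicates 3 and 4 together. The sign of values near 0 turned for Adgrl1 without Ctrl replicate 4 (-0.071) or Ctnnb1OE-EC replicate 2 (-0.025), for Adgrl2 without Ctnnb1OE-EC replicate 4 (0.0030) or replicates 3 and 4 together (0.050) and for Adgrl3 without Ctnnb1OE-EC replicate 1 (-0.046), none of them called. Over all rows the count of 234 was 20 by the plain analysis of variance, 86 with the replicate block, 68 and 386 at thresholds of 0.01 and 0.1, 61 without Ctnnb1OE-EC replicates 3 and 4 together, and 92 to 223 with 1 sample left out. Of partner and relative genes, 2 as reported, 0 passed by the analysis of variance, with the replicate block or without Ctnnb1OE-EC replicates 3 and 4 together, 1 at a threshold of 0.01, and 1 to 2 with 1 sample left out. The alternatives for Adgrg1, Lrig1 and 5730409K12Rik were chosen after seeing the data. None of the 3 passed by the analysis of variance, with the replicate block or without Ctnnb1OE-EC replicates 3 and 4 together. The causes were not tested. Flrt3 and Adgrl3 have no value with the filter at the median of row means, and Adgrl3 none with that at the 25th percentile, since those filters removed their rows. Low signal limits what Flrt3 and Adgrl3 can show.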

Other observations

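Of the rows compared, Slc12a7, a cotransporter of potassium and chloride, followed Flrt2 most closely, a gene chosen after its values were seen. Pearson r over 8 samples was 0.99 for the log2 values and 0.98 after the group means were subtracted, and Slc12a7 was the closest row by both measures. With 8 samples many rows reach such values: 129 of 12679 rows had r over 0.9 with Flrt2 by the first measure and 42 by the second. Its log2 fold change was 0.87 (SE 0.19, adjusted p = 0.0849 from limma), with mean log2 values of 7.13 in Ctrl and 8.01 in Ctnnb1OE-EC LSECs.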
